A study of Mus musculus with 24 samples.

Results

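Myogenic transcription factors were followed in the count table of an RNA-seq experiment on mouse C2C12 myoblasts, an established line of proliferating muscle precursor cells. The set held the 4 myogenic regulatory factors *Myod1*, *Myf5*, *Myog* and *Myf6*, the MEF2 genes *Mef2a*, *Mef2c* and *Mef2d*, and the paired box genes *Pax7* and *Pax3*. These 9 genes were picked by name and make up 9 of the 55291 gene symbols in the table, and all were read across the 24 libraries. The study asked how loss of single subunits of the SWI/SNF chromatin remodelling complexes changes the response of myoblasts to metals. Cells carried an shRNA against *Baf180* (*Pbrm1*, a subunit of the PBAF complex), *Baf250a* (*Arid1a*, canonical BAF) or *Brd9* (noncanonical BAF), or a scrambled control shRNA (scr). Each of these 4 cell lines was left without added metal (NT) or kept for 48 h in 100 µM CuSO4 (Cu) or 50 µM ZnSO4 (Zn), with 2 replicates in each of the 12 conditions. All cells, scr included, had been transduced with lentivirus and selected with puromycin as stable populations, so every comparison is between cells that carry an shRNA. The sample labels instead speak of primary myoblasts and a lipofectamine knockdown (KD), and the methods of the study are followed here. Conditions were taken from the sample titles, since the treatment field of the labels does not match the titles. The methods call the replicates independent biological replicates, and no source used here names separate transductions or cell clones, so p-values measure the spread between these samples.

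The myogenic regulatory factors are basic helix-loop-helix proteins that pair with E proteins and bind a short DNA motif, the E-box. *Myf5* and *Myod1* set muscle identity and are expressed in dividing myoblasts, *Myog* is switched on as myoblasts leave the cell cycle and differentiate, and *Myf6* belongs mostly to later muscle fibres. MEF2 proteins bind an A- and T-rich motif beside these factors at muscle genes. *Pax7* marks the quiescent stem cells of adult muscle, and its relative *Pax3* marks muscle precursors of the embryo. Id proteins hold back this programme by binding E proteins, and class IIa histone deacetylases hold back MEF2.

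The promoter of *Myog* is shown because it carries both the motif of the regulatory factors and that of the MEF2 proteins. The promoter of *Myf5* is shown because it carries neither of them. Motifs of *Pax7* and *Pax3* were not searched. RefSeq windows from 250 bases before to 50 bases after the start (GRCm38.p6) were found for 6 of the 9 members, in 8 windows. The E-box was searched as CANNTG, which reads the same on both strands, and the MEF2-type core as TA, then 4 bases that are each A or T, then TA. Capitals mark these matches, and the windows are chr1:134289754-134290053 on the plus strand for *Myog* and chr10:107486085-107486384 on the minus strand for *Myf5*.
Myog: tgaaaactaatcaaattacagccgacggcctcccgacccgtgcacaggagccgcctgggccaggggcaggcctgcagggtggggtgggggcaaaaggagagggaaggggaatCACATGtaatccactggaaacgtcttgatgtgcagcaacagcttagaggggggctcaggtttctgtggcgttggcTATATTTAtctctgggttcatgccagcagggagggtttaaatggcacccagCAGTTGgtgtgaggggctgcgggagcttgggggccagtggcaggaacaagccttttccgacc
Myf5: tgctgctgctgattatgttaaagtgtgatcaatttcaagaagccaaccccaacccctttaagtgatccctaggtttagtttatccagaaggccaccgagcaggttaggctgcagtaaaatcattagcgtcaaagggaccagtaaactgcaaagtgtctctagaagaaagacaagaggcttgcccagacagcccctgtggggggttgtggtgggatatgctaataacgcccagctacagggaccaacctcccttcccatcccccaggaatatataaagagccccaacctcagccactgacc
Counted from the start base as 0, *Myog* had E-boxes from -138 to -133 (CACATG) and from -12 to -7 (CAGTTG), and the core TATATTTA from -63 to -56, with no overlap among them. Both motifs together occurred in 7.01% of the 32851 windows of all genes, an E-box in 72.3%, at least 2 E-boxes in 39.6% and the core in 9.32%. *Mef2a* had a core (TAAAAATA) from -1 to 6, and 1 of the windows of *Mef2c* had 2 E-boxes and a core. A match describes letters in the window and does not show binding.

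Total counts per library ran from 495778 (*Baf250a* KD with Zn, replicate 2) to 75179394, with a median of 22158430. The next lowest total was 12719173, so this 1 shallow library stood apart. Some results that use it are given with and without it, and others only with it. There 1 count equalled 1.94 CPM (TMM-scaled counts per 1000000) and the limit that a count of 0 allows, 3 counts, equalled 5.83 CPM, which covers counting error alone. *Myf6*, *Mef2c* and *Pax7* had 0 counts in it. The targeted transcripts checked the labels. *Pbrm1* lay at 99.9 to 228 CPM in the 6 scr libraries and at 42.2 to 75.7 in *Baf180* KD, *Arid1a* at 266 to 308 and at 92.0 to 144 in *Baf250a* KD, and *Brd9* at 27.2 to 32.4 and at 13.8 to 17.9 in *Brd9* KD. Each targeted gene was below every scr library in all libraries of its KD, and each was still detected there. Of genes with a mean of at least 1 CPM, 10.2%, 15.4% and 7.48% lay so in *Baf180*, *Baf250a* and *Brd9* KD. The pattern was not limited to a gene's own KD, since *Arid1a* was below every scr library in *Baf180* KD too (206 to 264 CPM). *Brd9* was above every scr library in all libraries of *Baf180* KD and *Baf250a* KD.

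Per exon length, *Myod1*, *Myf5* and *Mef2d* were the most abundant members, with mean levels over the 24 libraries of 56.6, 40.6 and 27.5 RPKM (reads per kilobase of all annotated exons and 1000000 counts). *Mef2a* followed at 8.96 RPKM and *Myog* at 8.01. This order differed between cell lines, since *Myog* averaged 19.5 RPKM in *Baf180* KD, above *Mef2a* at 7.68, and *Mef2d* was above *Myf5* in *Baf180* KD (28.7 and 22.2 RPKM) and *Baf250a* KD (27.4 and 15.6). *Pax7* (0.379 RPKM), *Myf6* (0.262), *Mef2c* (0.0651) and *Pax3* (0.0518) were the lowest. *Myf6* and *Pax3* were near the limit of detection, with 0 to 58 and 0 to 16 counts per library. Outside the shallow library *Pax7* had 8 to 128 counts and *Mef2c* 2 to 74. RPKM uses the union of exons, which lowers the level of genes with long models such as *Mef2c*. Among the 12 conditions placed in order of mean CPM, the ranges of neighbours overlapped at 10 of 11 steps for *Myod1* and *Mef2d*, and at 4 for *Myf5* and 5 for *Myog* and *Mef2c*. *Myf5* had the clearest order, from scr with Zn (185.4 CPM), scr with Cu (169 CPM) and untreated scr (131.5 CPM) through the *Brd9* KD and *Baf180* KD conditions to *Baf250a* KD with Zn (19.3 CPM). On GRCm38 the genes lie at chr7:46376474-46379099 (*Myod1*), chr10:107482908-107486134 (*Myf5*), chr1:134289989-134292548 (*Myog*), chr10:107492853-107494737 (*Myf6*), chr7:67231163-67372858 (*Mef2a*), chr13:83504034-83667080 (*Mef2c*), chr3:88142372-88172086 (*Mef2d*), chr4:139737062-139833528 (*Pax7*) and chr1:78101267-78197134 (*Pax3*), and no exon of another gene overlaps them on the same strand. In bulk RNA, fewer cells of a type and less RNA per cell cannot be told apart.

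**Figure D1:**
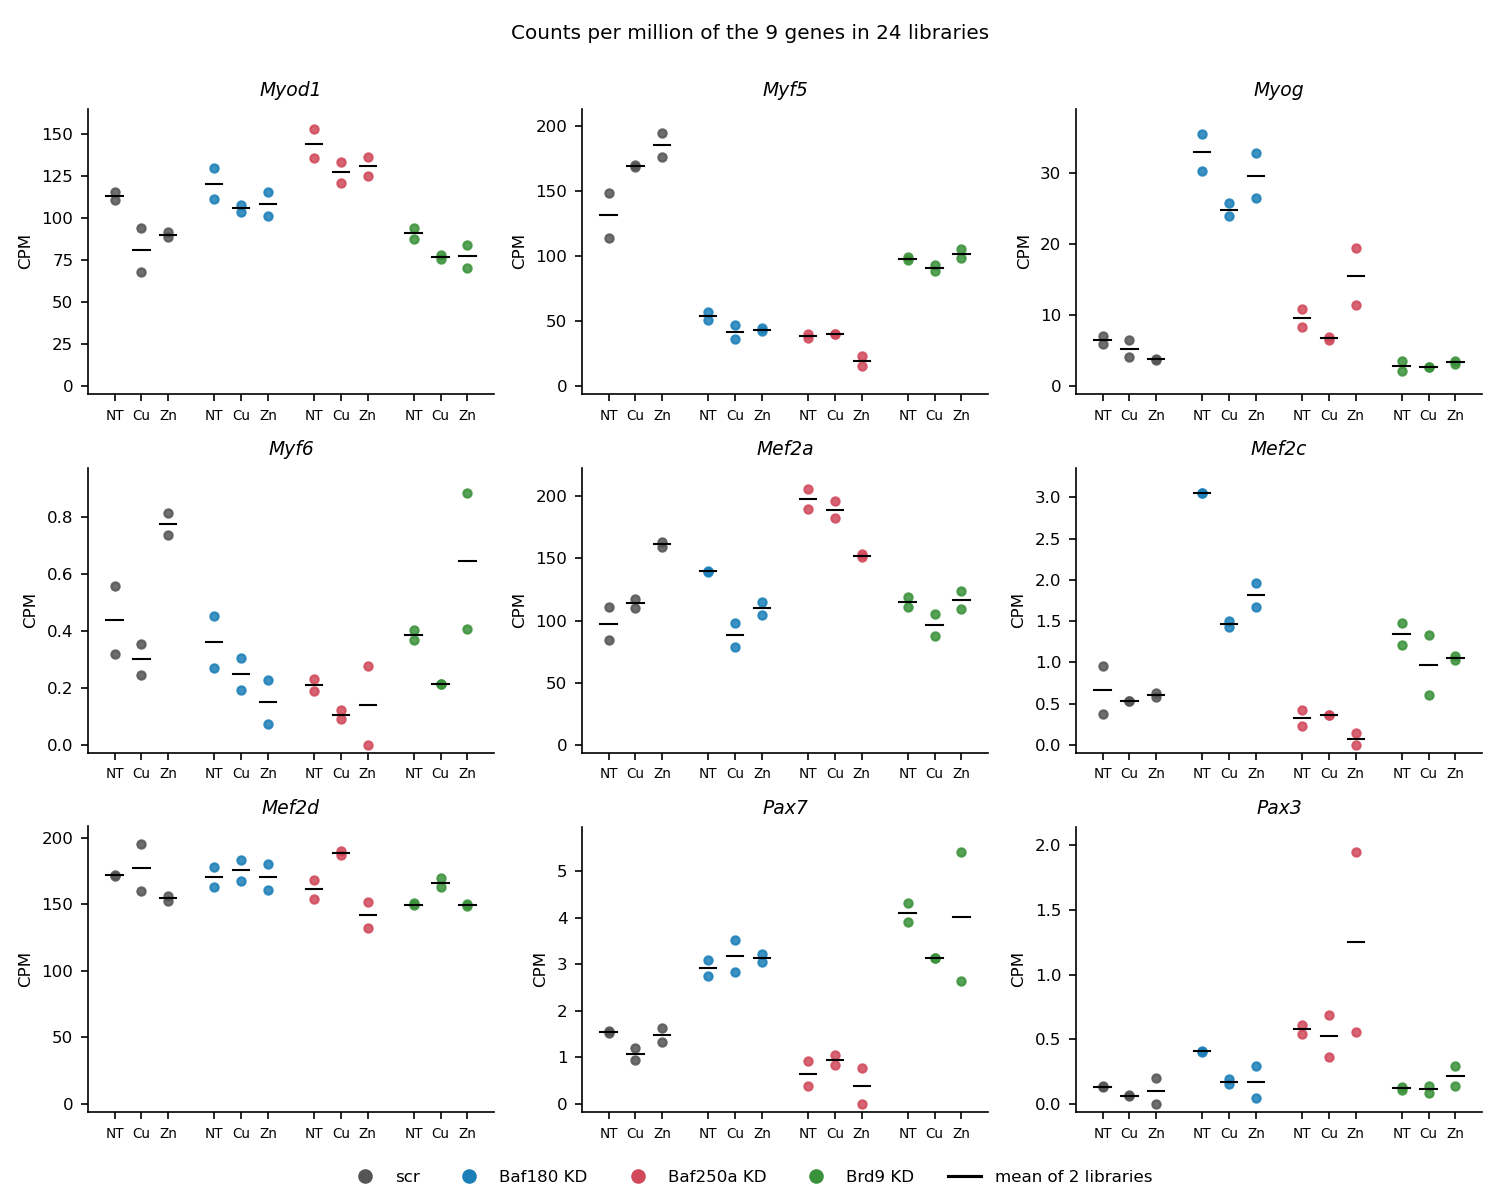
Level of each of the 9 members in every library, in CPM, by cell line and treatment, with 2 replicates per condition. *Myf5* is highest in the scr libraries (114 to 195 CPM) and *Myog* in the Baf180 KD libraries (23.96 to 35.6 CPM).

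Without added metal, *Baf180* KD changed 5 of the 8 members tested against scr (4 higher, 1 lower), where 41.0% of all genes tested were called. *Baf250a* KD changed 6 of 7 (4 higher, 2 lower), where 57.8% of all genes were called, and *Brd9* KD 3 of 7 (1 higher, 2 lower), where 29.2% were. A gene was called at a Benjamini-Hochberg adjusted p under 0.05 in edgeR's quasi-likelihood test over all genes, and members not tested had too few counts. A single number in parentheses after a log2 fold change of a member is its adjusted p from this test. With Cu, 4 of 7 members were called in *Baf180* KD (3 higher, 1 lower; 24.9% of all genes), 3 of 7 in *Baf250a* KD (2 higher, 1 lower; 41.2%) and 2 of 7 in *Brd9* KD (1 higher, 1 lower; 12.2%). With Zn, 7 of 8 were called in *Baf180* KD (4 higher, 3 lower; 49.9%), 5 of 9 in *Baf250a* KD (3 higher, 2 lower; 57.5%) and 3 of 8 in *Brd9* KD (1 higher, 2 lower; 23.2%). The count for *Baf250a* KD with Zn was 3 without the shallow library. With so many genes called, these counts say little about the members as a set, and their values are given one by one. All 9 comparisons use scr libraries of the same 3 conditions, so the KDs are not independent of each other within a treatment. Results with 1 library left out assume that the lone library of its condition varies as the others do.

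Several of these counts moved when 1 library was left out. Untreated, the count was 3 without either replicate of *Baf180* KD, 3 in *Baf250a* KD without its replicate 1 or scr replicate 2, and in *Brd9* KD 5 without scr replicate 1 and 0 without *Brd9* KD replicate 2. With Cu it was 2 without either *Baf180* KD replicate, 6 in *Baf250a* KD and 4 in *Brd9* KD without scr replicate 1, 5 in *Brd9* KD without scr replicate 2, and 1 without either *Brd9* KD replicate. With Zn it was 2 in *Baf250a* KD without either scr replicate and 3 without its own replicate 1. Calls gained without scr Cu replicate 1 included *Myod1* in *Baf180* KD (0.62), *Myog* in *Baf250a* KD (0.73) and *Brd9* KD (-0.65), and *Mef2a* in *Brd9* KD (-0.31). Without scr NT replicate 1, *Mef2a* (0.46) and *Mef2c* (1.86) were called in *Brd9* KD.

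*Myf5* was lower in every KD. Without added metal it was at 149 and 114 CPM in the scr libraries, 56.9 and 51.0 in *Baf180* KD, 37.0 and 39.8 in *Baf250a* KD, and 99.05 and 97.2 in *Brd9* KD. In each KD all 6 libraries, treated or not, lay below every scr library. Among 12895 genes with a mean of at least 1 CPM, 10.2% were below every scr library in this way in *Baf180* KD, 15.4% in *Baf250a* KD and 7.48% in *Brd9* KD. *Myf5* fell 2.41-fold in untreated *Baf180* KD (log2 fold change -1.27, SE 0.13, edgeR adjusted p = 2.14e-05) and 3.42-fold in untreated *Baf250a* KD (-1.77, SE 0.13, edgeR adjusted p = 2.04e-07). In untreated *Brd9* KD the log2 fold change was -0.40 (SE 0.13, edgeR adjusted p = 0.0534), short of the threshold. It was called there without scr NT replicate 2, at -0.60 (edgeR adjusted p = 0.000438), and after correction for GC content and length, at -0.78 (edgeR adjusted p = 0.000279).

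The gap in *Myf5* to scr was also present with metal. With Cu, *Myf5* was at 170 and 169 CPM in scr, 36.3 and 46.7 in *Baf180* KD, 40.2 and 39.8 in *Baf250a* KD, and 93.4 and 88.5 in *Brd9* KD. With Zn it was at 194.5 and 176 CPM in scr, 42.25 and 44.6 in *Baf180* KD, 23.1 and 15.55 in *Baf250a* KD, and 98.3 and 105.5 in *Brd9* KD. The second value for *Baf250a* KD with Zn is 8 counts in the shallow library. None of these KD libraries reached the lowest scr library of its treatment. The log2 fold changes with Cu were -2.03 (SE 0.15) in *Baf180* KD, -2.06 (SE 0.10) in *Baf250a* KD and -0.91 (SE 0.09) in *Brd9* KD, with edgeR adjusted p of 3.76e-06, 5.13e-06 and 0.00132. With Zn they were -2.15 (SE 0.07), -3.05 (SE 0.12) and -0.89 (SE 0.08), with edgeR adjusted p of 2.10e-07, 3.93e-32 and 0.000210. The adjusted p for *Baf250a* KD with Zn, a comparison that holds the shallow library, depended strongly on the setting. Over the 7 other settings (edgeR or DESeq2) it ran from 7.93e-148 to 2.06e-05. The size of p-values in that comparison is therefore not read as certainty, for *Myf5* or for other members. All 8 calls of *Myf5* held in each of the 7 other settings and with each library left out, and without any 1 library the value for *Baf250a* KD with Zn stayed between -3.60 and -3.04.

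*Myod1*, the other early factor, was higher in *Baf250a* KD, with smaller differences in the other KDs. Untreated, it was at 110.4 and 115.5 CPM in scr, 129.7 and 111 in *Baf180* KD, 153 and 135 in *Baf250a* KD, and 93.8 and 87.7 in *Brd9* KD. All 6 *Baf250a* KD libraries (120.6 to 153 CPM) lay above every scr library (67.6 to 115.5 CPM), a pattern shared by 16.6% of genes with a mean of at least 1 CPM. The log2 fold change in *Baf250a* KD was 0.35 (SE 0.11, edgeR adjusted p = 0.0128) untreated, 0.68 (SE 0.16, edgeR adjusted p = 0.0117) with Cu and 0.47 (SE 0.09, edgeR adjusted p = 3.83e-06) with Zn. The untreated call was lost without *Baf250a* KD replicate 1, at 0.25 (edgeR adjusted p = 0.220), the Cu call without *Baf250a* KD replicate 2, at 0.60 (0.0929), and the Zn call without either scr replicate, at 0.53 and 0.50 (0.185 and 0.225). It was also lost with Zn after correction for GC content, at 0.37 (0.200). In *Baf180* KD the log2 fold change was 0.11 (edgeR adjusted p = 0.453) untreated, 0.38 (0.0962) with Cu and 0.21 (0.0373) with Zn. The last value turned to -0.18 (edgeR adjusted p = 0.0482) after the GC correction and was not called without either scr replicate (0.22 and 0.19) or *Baf180* KD replicate 1 (0.14), so no direction is drawn from it. In *Brd9* KD *Myod1* fell untreated (-0.30, SE 0.10, edgeR adjusted p = 0.0467), a call kept in 1 of the 7 other settings and lost without scr replicate 2 (-0.28), *Brd9* KD replicate 1 (-0.35) or *Brd9* KD replicate 2 (-0.29). With Cu it was at -0.08 (0.796), and called without scr replicate 2 (-0.30, 0.0322). With Zn it was at -0.25 (0.0656), and called without *Brd9* KD replicate 1 (-0.37) or 2 (-0.17) and after the GC correction (-0.48, 0.00186).

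The balance between the 2 early factors differed between the cell lines. The ratio of *Myod1* to *Myf5*, each in RPKM, ran from 0.449 to 1.13 in the 6 scr libraries (median 0.591) and from 0.745 to 1.06 in *Brd9* KD (median 0.956). It ran from 2.44 to 3.18 in *Baf180* KD (median 2.57) and from 3.36 to 9.79 in *Baf250a* KD (median 4.22). Every *Baf180* KD and *Baf250a* KD library had more *Myod1* than *Myf5*, and 5 of the 6 scr libraries the reverse. Of the summed RPKM of the 4 regulatory factors, *Myf5* made up a median of 61.1% in scr, 49.8% in *Brd9* KD, 22.7% in *Baf180* KD and 18.1% in *Baf250a* KD. *Myod1* made up a median of 36.1%, 47.6%, 58.6% and 75.8% in the same order. *Myog* made up 17.7 to 21.1% in *Baf180* KD, 4.88 to 13.9% in *Baf250a* KD, 1.77 to 3.49% in scr and 1.47 to 2.51% in *Brd9* KD, and the top of the *Baf250a* KD range is the shallow library. These ratios and shares are descriptions, were not tested and were not corrected for GC content. *Myod1* has 58.9% GC and *Myf5* 41.6%, and the libraries differed in their GC trend, as given below for the metal responses.

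*Myog*, the factor of differentiating myoblasts, moved in different directions in the KDs. In untreated cells it was at 7.07 and 5.99 CPM in scr, 35.6 and 30.3 in *Baf180* KD, 10.9 and 8.29 in *Baf250a* KD, and 3.48 and 2.09 in *Brd9* KD. All 6 *Baf180* KD libraries (23.96 to 35.6 CPM) were above, and all 6 *Brd9* KD libraries (2.09 to 3.56 CPM) below, every scr library (3.67 to 7.07 CPM). Of genes with a mean of at least 1 CPM, 16.2% had the first pattern and 7.48% the second. *Myog* rose 5.12-fold in untreated *Baf180* KD (log2 fold change 2.36, SE 0.16, edgeR adjusted p = 4.87e-07). With Cu the log2 fold change there was 2.27 (SE 0.21, edgeR adjusted p = 2.38e-05) and with Zn 2.92 (SE 0.13, edgeR adjusted p = 6.77e-07), and these calls held in all settings and with each library left out.

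The rise of *Myog* in *Baf250a* KD was smaller and differed between treatments. Its log2 fold change was 0.57 (SE 0.19, edgeR adjusted p = 0.0236) untreated, 0.40 (edgeR adjusted p = 0.249) with Cu and 1.67 (SE 0.22, edgeR adjusted p = 1.08e-09) with Zn. With Zn the *Baf250a* KD libraries were at 11.5 and 19.4 CPM, the second being 10 counts, against 3.85 and 3.67 CPM in scr, and the call held without any 1 library, between 1.58 and 2.34. The untreated call was lost without scr replicate 2, at 0.44 (edgeR adjusted p = 0.0523), and without *Baf250a* KD replicate 1, at 0.33 (0.321). In *Brd9* KD the fall of *Myog* was called untreated (-1.19, SE 0.27, edgeR adjusted p = 0.0153). Without *Brd9* KD replicate 2 it was -0.92 (0.0966), which is not a call. With Cu it was -0.98 (0.0618), and called without scr replicate 1 (-0.65, 0.0461) or 2 (-1.29, 0.00321) and after the GC correction (-1.04, 0.0419). With Zn it was -0.19 (0.547), where scr was at 3.85 and 3.67 CPM and *Brd9* KD at 3.56 and 3.09.

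*Myf6*, the fourth regulatory factor, was barely detected. It had 5 and 12 counts in the untreated scr libraries, 6 and 11 in *Baf180* KD, 6 and 4 in *Baf250a* KD, and 7 and 6 in *Brd9* KD, so no difference was detectable at this depth. With Zn the scr libraries had 22 and 58 counts (0.815 and 0.736 CPM) and *Baf180* KD had 1 and 5 (0.0726 and 0.228 CPM). The log2 fold change of that comparison was -2.24 (SE 0.55, edgeR adjusted p = 0.00885). It lost its call under DESeq2, with an adjusted p of 0.0617. The gene is a close neighbour of *Myf5* on the minus strand of chromosome 10 and shares no exon with it.

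Of the MEF2 genes, *Mef2d* showed no called difference from scr, *Mef2a* was higher in *Baf250a* KD and *Mef2c* was higher in *Baf180* KD. *Mef2d* lay between 132 and 195 CPM in all 24 libraries, and none of its 9 comparisons with scr was called. The log2 fold changes were between -0.18 and 0.11, and the approximate 95% interval in untreated *Baf180* KD ran from -0.19 to 0.20. With 1 library left out *Mef2d* was called in *Baf250a* KD with Cu (0.26, without scr replicate 1), *Brd9* KD with Cu (-0.24, without scr replicate 2) and *Baf180* KD with Zn (0.15, without *Baf180* KD replicate 2). After the GC correction all 9 values were below 0 and 3 were called, at -0.25 in *Baf180* KD with Zn (edgeR adjusted p = 0.00745), against 0.08 without it, -0.23 in untreated *Baf250a* KD (0.0209) and -0.28 in *Brd9* KD with Zn (0.0175).

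*Mef2a* was at 110.7 and 84.7 CPM in untreated scr, 140.0 and 139 in *Baf180* KD, 189.6 and 206 in *Baf250a* KD, and 111 and 119 in *Brd9* KD. Both *Baf250a* KD libraries and both *Baf180* KD libraries were above both of scr, and the *Brd9* KD libraries were close to the higher of these. The rise in *Baf250a* KD was called untreated (log2 fold change 1.02, SE 0.13, edgeR adjusted p = 2.45e-05) and with Cu (0.76, SE 0.10, edgeR adjusted p = 0.000871). With Zn, scr was at 159 and 164 CPM and *Baf250a* KD at 151 and 154, and the difference was -0.11 (0.340). In *Baf180* KD the sign differed by treatment, with a log2 fold change of 0.53 (edgeR adjusted p = 0.00646) untreated, -0.37 (0.0783) with Cu and -0.61 (0.000167) with Zn. *Brd9* KD gave 0.25 (0.200), -0.25 (0.231) and -0.50 (0.00529). *Mef2a* is rich in A and T, with 42.0% GC in its longest transcript, and the GC correction took the untreated rise in *Baf180* KD to 0.06 (0.617) and that in *Baf250a* KD to 0.46 (0.000280), which was still called. It took *Baf250a* KD with Cu to 0.43 (0.00833) and *Baf180* KD with Zn to -0.30 (0.00272), both still called. Untreated *Brd9* KD went to -0.19 (0.108) and *Baf250a* KD with Zn to 0.41 (0.147), with the sign turned and no call. The untreated *Baf180* KD call was also lost without either *Baf180* KD replicate, at 0.50 (0.0781) and 0.49 (0.0955).

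*Mef2c* was low in all cell lines. It had 15 and 8 counts in untreated scr (0.956 and 0.371 CPM) and 68 and 74 in untreated *Baf180* KD (3.05 CPM in both). All 6 *Baf180* KD libraries (1.43 to 3.05 CPM) lay above every scr library, a pattern shared by 16.2% of genes with a mean of at least 1 CPM. Its log2 fold change was 2.27 untreated (SE 0.43, edgeR adjusted p = 0.00146), 1.44 with Cu (SE 0.41, 0.0272) and 1.54 with Zn (SE 0.32, 0.00412). The Cu call was lost without scr replicate 2 (1.44, edgeR adjusted p = 0.0789) and without either *Baf180* KD replicate (1.41 and 1.46, 0.225 and 0.209). In *Brd9* KD the log2 fold changes were 1.10, 0.82 and 0.78, none of them called (edgeR adjusted p of 0.120, 0.359 and 0.148). In *Baf250a* KD with Zn, *Mef2c* had 2 counts in replicate 1 and 0 in the shallow library, and its call (-2.15, edgeR adjusted p = 0.0422) was lost without the latter, at -2.12 (0.0529), and without replicate 1 (0.686).

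*Pax7* was higher in *Baf180* KD and *Brd9* KD, at low levels. Untreated, it was at 1.53 and 1.58 CPM in scr, 3.09 and 2.76 in *Baf180* KD, 0.929 and 0.377 in *Baf250a* KD, and 3.90 and 4.32 in *Brd9* KD. All 6 libraries of *Baf180* KD and of *Brd9* KD were above every scr library. Of genes with a mean of at least 1 CPM, 16.2% had the first pattern and 10.6% the second. In *Brd9* KD the log2 fold change was 1.41 untreated (SE 0.27, edgeR adjusted p = 0.00845), 1.49 with Cu (SE 0.30, 0.0180) and 1.42 with Zn (SE 0.33, 0.0182). In *Baf180* KD it was 0.92 (SE 0.31, 0.0330), 1.52 (SE 0.33, 0.00700) and 1.00 (SE 0.25, 0.0106). In *Baf250a* KD it was -1.21 untreated (SE 0.45, 0.0339), -0.17 with Cu (0.766) and -1.06 with Zn (0.0822), the last called after the GC correction (-1.45, 0.0359).

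Each of these 7 calls of *Pax7* was lost when some library was left out, while all values kept their sign. Untreated *Baf180* KD lost it without any 1 of its 4 libraries, at 0.82 to 0.96 (edgeR adjusted p of 0.0805 to 0.150). With Cu it was lost without either *Baf180* KD replicate (1.37 and 1.67, edgeR adjusted p of 0.129 and 0.0532) and without either *Brd9* KD replicate (1.495 and 1.502, 0.174 and 0.169). With Zn it was lost without scr replicate 1 in *Baf180* KD (0.89, 0.0722) and without *Brd9* KD replicate 1 (0.80, 0.101). Untreated *Brd9* KD lost it without replicate 2 (1.30, 0.0669), and untreated *Baf250a* KD without its replicate 2 (-0.74, 0.279) and without scr replicate 2 (-1.20, 0.0710).

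*Pax3* had 2 and 3 counts in untreated scr, 9 and 10 in *Baf180* KD, 14 and 13 in *Baf250a* KD, and 2 and 2 in *Brd9* KD. In *Baf250a* KD the log2 fold change was 2.05 untreated (SE 0.63, edgeR adjusted p = 0.0136). The call was lost without any 1 of the 4 libraries (1.97 to 2.12, edgeR adjusted p of 0.0783 to 0.123) and under DESeq2. With Zn, where *Baf250a* KD had 8 counts and 1 count, the value was 2.03 (SE 0.81, 0.0274), and without the shallow library 1.91 (0.0595).

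The KDs were also compared with each other, with treatment as a term and 12 libraries in each fit, which involves no scr library. Between *Baf180* KD and *Baf250a* KD, 7 of 8 members tested were called (4 higher in *Baf180* KD, 3 lower), where 44.7% of all genes were. Between *Baf180* KD and *Brd9* KD 5 of 8 were called (4 higher, 1 lower; 40.8% of all genes), and between *Baf250a* KD and *Brd9* KD 7 of 8 (4 higher, 3 lower; 54.1%). The comparisons with *Baf250a* KD gave 7 and 7 without the shallow library. *Myog* was 3.24-fold higher in *Baf180* KD than in *Baf250a* KD (log2 difference 1.69, edgeR adjusted p = 2.10e-09) and 9.68-fold higher than in *Brd9* KD (3.28, edgeR adjusted p = 2.99e-12). *Myog* was also higher in *Baf250a* KD than in *Brd9* KD (1.66, edgeR adjusted p = 4.87e-08).

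*Myf5* was lowest in *Baf250a* KD, at a log2 difference of 0.44 (SE 0.12, edgeR adjusted p = 0.00452) for *Baf180* KD over it and -1.47 (1.02e-08) for it against *Brd9* KD. *Baf180* KD was below *Brd9* KD by -1.09 (7.42e-09). *Myod1* was highest in *Baf250a* KD, with -0.26 (0.00327) for *Baf180* KD against it and 0.72 (4.26e-08) for it against *Brd9* KD. Thus both early factors differed in each pair, with *Myod1* at 0.43 (8.03e-06) between *Baf180* KD and *Brd9* KD. *Mef2a* was higher in *Baf250a* KD than in the other KDs (-0.70 and 0.75, edgeR adjusted p of 9.74e-06 and 9.11e-07), and *Baf180* KD and *Brd9* KD differed by 0.00 (0.978). *Mef2c* was highest in *Baf180* KD, by 2.77 over *Baf250a* KD (1.83e-07) and 0.85 over *Brd9* KD (0.00198). *Pax7* was lower in *Baf250a* KD than in *Baf180* KD (1.95, 7.98e-07) and *Brd9* KD (-2.20, 1.12e-06), while *Baf180* KD and *Brd9* KD were called apart after the GC correction (-0.41, 0.0336) and not without it (-0.30, 0.144).

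*Mef2d* was called between *Baf180* KD and *Brd9* KD at 0.13 (edgeR adjusted p = 0.0328), a difference that was lost without *Baf180* NT replicate 1 (0.12, 0.0596) or *Baf180* Cu replicate 2 (0.13, 0.0573), and after the GC correction (0.018, 0.786). *Pax3* was higher in *Baf250a* KD than in *Baf180* KD (-1.18, 0.0174). That call was lost without 1 of 3 libraries, *Baf180* Cu replicate 2 (-1.08, 0.0551), *Baf250a* Cu replicate 1 (-0.98, 0.0776) and *Baf250a* Zn replicate 1 (-1.08, 0.0571). Of the 19 calls between KDs, the other 17 were kept under each of the 7 other settings and with each library left out.

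Metal changed few members. With Cu, none of 8 members was called in scr, where 0.0333% of all genes were, none of 7 in *Baf250a* KD (1.27%) and none of 7 in *Brd9* KD (0.274%). With Zn, none of 7 was called in *Baf180* KD (0.0197%) and none of 7 in *Brd9* KD (0.0334%). At an unadjusted p under 0.05 these 5 edgeR comparisons held 2, 2, 2, 3 and 1 members, and DESeq2 called 0 in each. Zn in scr changed 2 of 8 (2 higher; 17.6% of all genes), Cu in *Baf180* KD 3 of 7 (3 lower; 13.8%) and Zn in *Baf250a* KD 2 of 7 (2 lower; 15.9%), the last also without the shallow library.

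In scr, *Myf5* rose with Zn from 149 and 114 to 194.5 and 176 CPM (log2 fold change 0.58, SE 0.14, edgeR adjusted p = 0.0336), and *Mef2a* from 110.7 and 84.7 to 159 and 164 CPM (0.81, SE 0.14, 0.0275). In *Baf180* KD, Cu lowered *Myog* from 35.6 and 30.3 to 23.96 and 25.8 CPM (-0.44, SE 0.12, 0.0400). *Mef2a* fell there from 140.0 and 139 to 79.1 and 98.45 CPM (-0.69, SE 0.11, 0.00778), and *Mef2c* from 3.05 in both to 1.498 and 1.431 CPM (-1.09, SE 0.26, 0.0269). In *Baf250a* KD, Zn lowered *Myf5* from 37.0 and 39.8 to 23.1 and 15.55 CPM (-0.77, SE 0.14, 0.000458) and *Mef2a* from 189.6 and 206 to 151 and 154 CPM (-0.38, SE 0.10, 0.0154). In none of these did the replicates of the conditions overlap. The responses were picked because they were called, so the lack of overlap is a description and not a separate test.

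The GC trend of the libraries moved with these responses. The slope of log2 CPM on GC content over 9148 genes, relative to the mean library, was -0.267 and -0.325 per 10 percentage points in scr with Zn against 0.0909 and 0.326 in untreated scr. It was 0.301 and 0.167 in *Baf180* KD with Cu against -0.0156 and -0.109 untreated, and 0.0699 and 0.233 in *Baf250a* KD with Zn against -0.0659 and -0.158. *Myf5*, *Mef2a* and *Mef2c* have 41.6, 42.0 and 40.8% GC, at the low end of the members, where *Myod1* has 58.9%. After correction for GC content and length the Zn response of scr was 0.04 for *Myf5* (edgeR adjusted p = 0.908) and 0.23 for *Mef2a* (0.228). The Cu response of *Baf180* KD became -0.32 for *Mef2a* (0.0655) and -0.65 for *Mef2c* (0.155), and that of *Myog*, with 54.8% GC, was -0.55 and still called (0.0309). In *Baf250a* KD with Zn, *Myf5* was at -0.44 and still called (0.0487) and *Mef2a* at 0.03 (0.929).

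All 7 metal calls were also lost when some library was left out. Zn in scr lost both without scr NT replicate 2 (0.38 for *Myf5*, 0.61 for *Mef2a*), without scr Zn replicate 1 (0.52 and 0.84) and without scr Zn replicate 2 (0.64 and 0.79). Cu in *Baf180* KD lost *Myog* and *Mef2c* without any 1 of their 4 libraries (-0.53 to -0.34 and -1.12 to -1.055). *Mef2a* was lost there without Cu replicate 1 (-0.54) and NT replicate 2 (-0.67). Zn in *Baf250a* KD lost *Myf5* without Zn replicate 1 (-1.28), and *Mef2a* without that library (-0.34) and without NT replicate 2 (-0.32). Without Zn replicate 1, only the shallow library stood for that condition. *Myod1* was called for Cu in scr without Cu replicate 1 (-0.69), and *Myf5* for Cu in *Baf180* KD without Cu replicate 2 (-0.60).

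Whether a metal acted differently in a KD than in scr was tested on all 24 libraries. Against the Cu response of scr, 2 of 9 members differed in *Baf180* KD (2 lower; 12.8% of all genes), 0 of 9 in *Baf250a* KD (0.0121%) and 0 of 9 in *Brd9* KD (0.0363%). In edgeR, 0 and 2 members of the last pair had an unadjusted p under 0.05, and DESeq2 called 0 in both. Against the Zn response of scr, 2 of 9 differed in *Baf180* KD (2 lower; 28.7%), 3 of 9 in *Baf250a* KD (1 higher, 2 lower; 30.5%) and 1 of 9 in *Brd9* KD (1 lower; 11.1%). The 8 values involve *Mef2a* in 4 cases, *Myf5* in 3 and *Myog* in 1, and none of them was called after the GC correction.

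Genes that act with the members were followed in lists chosen with earlier results of these data known. Of 55 genes on 6 lists and *Mef2b*, 48 were tested in untreated *Baf180* KD (24 higher, 11 lower), 47 in *Baf250a* KD (22 higher, 14 lower) and 46 in *Brd9* KD (8 higher, 16 lower). Over all genes tested in the same comparisons, 41.0%, 57.8% and 29.2% were called in either direction. Their median log2 fold changes were 0.37, 0.29 and -0.05, against 0.03, 0.00 and 0.01 for all genes tested. *Mef2b* and *Id4* were not tested. Among the E proteins, the partners of the regulatory factors, *Tcf12* rose in all 3 KDs (0.68, 0.86 and 0.48, in the order *Baf180*, *Baf250a*, *Brd9* KD). *Tcf4* rose in *Baf180* KD and *Baf250a* KD (0.99 and 1.29) and was at 0.31 in *Brd9* KD. *Tcf3* fell in the first 2 (-0.36 and -0.57) and was at -0.04 in *Brd9* KD.

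Inhibitors of the programme were mostly higher in *Baf180* KD and *Baf250a* KD. In untreated *Baf180* KD 8 of 12 tested rose and 1 fell (median 0.62), in *Baf250a* KD 9 of 13 rose and 2 fell (median 1.17), and in *Brd9* KD 2 of 12 rose and 2 fell (median 0.24). Of all genes tested, 41.0%, 57.8% and 29.2% were called there in either direction. *Id2* was at 12.8 and 10.3 CPM in scr, 35.2 and 28.2 in *Baf180* KD, 75.9 and 74.9 in *Baf250a* KD, and 22.7 and 19.6 in *Brd9* KD. Its log2 fold changes were 1.48, 2.71 and 0.90 (edgeR adjusted p of 2.5e-05, 3.2e-09 and 0.0063), so it rose in each KD and most in *Baf250a* KD. *Id1* also rose in each (0.82, 1.80 and 0.60), and *Id3* rose in *Baf180* KD and *Baf250a* KD (0.62 and 2.27) and was at 0.21 in *Brd9* KD. *Snai1*, a repressor that competes for E-boxes, rose in the same 2 KDs (1.23 and 2.07). *Hey1*, a Notch target that represses muscle genes, fell in all 3 (-2.47, -2.51 and -1.27). Of the MEF2 repressors, *Hdac4* (1.00, 1.61 and 0.33) and *Hdac7* (1.11, 1.05 and 0.43) rose in all 3 KDs, while *Hdac9* fell in *Baf180* KD and *Baf250a* KD (-1.04 and -1.41).

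Coactivators went both ways, with 3 of 8 higher and 3 lower in *Baf180* KD, 2 of 7 and 1 in *Baf250a* KD, and 1 of 7 and 2 in *Brd9* KD. The shares of all genes called in either direction were 41.0%, 57.8% and 29.2%. *Smarcd3*, the SWI/SNF subunit Baf60c, fell in all 3 (-0.44, -0.81 and -0.51), and the methyltransferase *Carm1* rose in all 3 (0.48, 0.36 and 0.34). The acetyltransferase *Ep300* rose in *Baf180* KD and *Baf250a* KD (0.37 and 0.47). Of 5 factors upstream in the lineage that were tested, 4 rose in *Baf180* KD, 5 in *Baf250a* KD and 1 in *Brd9* KD, and none fell. *Six4* rose in each KD (0.63, 0.33 and 0.60), and *Pitx3* (2.25 and 2.20) and *Eya1* (1.01 and 1.05) rose in the first 2.

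Known targets of the regulatory factors went both ways in *Baf180* KD and were mostly lower in the other KDs. In untreated *Baf180* KD 5 of 16 tested rose and 5 fell (median 0.06), in *Baf250a* KD 2 of 15 rose and 9 fell (median -0.86), and in *Brd9* KD 1 of 15 rose and 12 fell (median -0.71). Calls in either direction made up 41.0%, 57.8% and 29.2% of all genes tested. The acetylcholine receptor subunits *Chrna1* (-1.23, -1.38 and -0.67), *Chrnb1* (-0.90, -1.52 and -0.36) and *Chrnd* (-0.91, -2.35 and -0.59) fell in all 3 KDs. So did the muscle cadherin *Cdh15* (-0.55, -1.61 and -0.50) and desmin, *Des* (-1.11, -1.52 and -0.87). Embryonic myosin, *Myh3*, was at 6.56 and 4.97 CPM in scr, 36.7 and 39.9 in *Baf180* KD, 9.13 and 8.66 in *Baf250a* KD, and 1.74 and 2.90 in *Brd9* KD. It rose in *Baf180* KD (2.76) and *Baf250a* KD (0.64) and fell in *Brd9* KD (-1.31). It is named as the gene most like *Myog* across the conditions, so a shared direction follows from that choice. The fusion gene *Mymk* rose in *Baf180* KD (1.36) and was at 0.09 and -0.19 in the others. *Chrnb1*, *Cdh15* and *Mymk* are named outside the rule for list genes, after their values were seen. *Fgfr4* was at 0.0637 and 0.186 CPM in scr (1 and 4 counts) and at 5.23 and 6.40 in *Baf250a* KD, and it was called higher in each KD.

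Markers of other cell types moved with these results, and their part in them was not tested. The 9 fibroblast or mesenchymal markers summed to 887 to 1200 CPM in the scr libraries, 2085 to 2524 in *Baf180* KD, 5082 to 6945 in *Baf250a* KD and 1152 to 1507 in *Brd9* KD, with *Tcf21* at 0 in all but *Baf180* KD and *Lum* at 0 in scr and *Brd9* KD. The 8 myoblast markers, which include *Myod1* and *Myf5*, summed to 3732 to 5328 CPM in scr, 2479 to 2708 in *Baf180* KD, 1977 to 2116 in *Baf250a* KD and 2601 to 3161 in *Brd9* KD, so myoblast genes were expressed in every line. The 8 myotube markers, *Myog* among them, summed to 60.6 to 94.5 CPM in scr, 117 to 166 in *Baf180* KD, 53.7 to 73.9 in *Baf250a* KD and 27.9 to 35.2 in *Brd9* KD. The 4 quiescent satellite cell markers, *Pax7* among them, summed to 7.71 to 9.80, 20.7 to 25.2, 20.6 to 37.6 and 7.95 to 12.4 CPM in that order, with *Calcr* at 0 in the KDs. Untreated, *Spry1* of this list rose in *Baf180* KD (1.37) and *Baf250a* KD (2.11), whereas *Pax7* rose in *Baf180* KD (0.92) and fell in *Baf250a* KD (-1.21). In untreated *Baf180* KD the myotube markers *Acta1* (0.01) and *Ckm* (0.37) were not called, while the others of their list rose. In *Baf250a* KD these fell (-0.86 and -0.99), while *Myog* (0.57) and *Myh3* (0.64) rose. The myoblast marker *Vcam1* rose in all 3 untreated KDs (2.91, 3.03 and 1.58), while *Des*, *Cdh15*, *Chrna1* and *Itga7* fell. These single markers were named after their values were seen. Endothelial markers summed to at most 5.57 CPM, leukocyte markers to at most 6.22 and adipocyte markers to at most 24.7 in any library.

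The genes whose pattern was most like that of each member are given as a description, over the means of 12 conditions that share libraries between the genes. Pearson's r of mean log2 CPM was computed against 12895 genes with a mean of at least 1 CPM. For *Myog* they were *Myh3* (r = 0.987), the slow troponin *Tnni1* (0.978) and *Mybph* (0.956), 3 genes of the sarcomere. For *Myf5* they were *Samd8* (0.982), *Daam1* (0.981) and *Depdc7* (0.981), and for *Myod1* *St3gal5* (0.950) and *Fam174a* (0.949). For *Mef2a* they were *Casp12* (0.981), *Ikbip* (0.978) and *Wdr26* (0.969), and for *Mef2c* *Rgcc* (0.965), *Plagl1* (0.955) and *Gm45338* (0.948). For *Mef2d*, the member that varied least, they were *Slc6a8* (0.911), *Smcr8* (0.878) and *Ercc4* (0.875), and for *Pax7* *Mir763* (0.989), *Gm48958* (0.973) and *Pbx4* (0.966). The conditions of a cell line lie close together, so the 12 points are not independent.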

How the data were processed

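RNA was depleted of ribosomal RNA with RNase H and sequenced from a directional kit in 24 libraries of 12 conditions. The authors mapped read pairs to mm10 by STAR, dropped those with more than 1 site, and assigned them to genes by strand in featureCounts. The values used are the raw counts the authors deposited for 55291 gene symbols. Tables of the authors' own DESeq2 comparisons, which hold log2 fold changes, standard errors and p-values, were not used. Versions of these tools are not given in the sources used here.

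Counts were analysed in R 4.3.3 with edgeR 4.0.16 (TMM, filterByExpr at its defaults, glmQLFit and glmQLFTest) and called at a Benjamini-Hochberg adjusted p under 0.05 over all genes tested. Fits used the 4 libraries of a KD and scr, the 12 of a pair of KDs with treatment as a term, the 6 of a cell line for a metal response, and all 24 for a difference between responses. CPM are TMM-scaled, and log2 CPM used a prior count of 2. Each edgeR SE was derived from the log2 fold change and the F statistic of its test. The 95% intervals take a normal spread from these SEs and are therefore too narrow for so few libraries. RPKM used union exon lengths of GENCODE M21, whose annotation matched 53180 symbols. GC content and length were corrected with a spline of 5 degrees of freedom in each library, used as an offset. Since total counts set the precision, per-library counts are given for the low members. Scripts were tested on simulated data. Alternatives were RLE size factors, a filter of at least 1 count, the replicate number as a block, the GC correction with and without that block, all 24 libraries in the fit, DESeq2 1.42.0, and leaving out each library. All members are named in every comparison, and up to 4 genes of each list by how often they were called in 1 direction in the untreated KDs, then by size, with the E proteins and Id genes in any case. The members and lists were chosen with earlier results of these data known. The results for 2 genes that the rules would name are not reported here.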

Additional observations from a re-analysis of the deposited data

Results flagged for a closer look

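In 8 cases the response of a member to a metal differed between a KD and scr in edgeR's quasi-likelihood test of the difference, with adjusted p over all genes. *Mef2a* responded to Cu in *Baf180* KD by -0.88 relative to scr (SE 0.17, edgeR adjusted p = 0.00826) and *Myf5* by -0.74 (SE 0.17, 0.0121). The Zn response of *Baf180* KD differed by -1.07 for *Mef2a* (SE 0.17, edgeR adjusted p = 0.000902) and by -0.81 for *Myf5* (SE 0.17, 0.00240). That of *Baf250a* KD differed by -1.11 for *Mef2a* (SE 0.18, edgeR adjusted p = 0.000307), by -1.28 for *Myf5* (SE 0.20, 0.000246) and by 1.14 for *Myog* (SE 0.32, 0.0115). That of *Brd9* KD differed by -0.71 for *Mef2a* (SE 0.17, edgeR adjusted p = 0.0258).

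All of these values share the scr libraries, in which *Mef2a* and *Myf5* were higher with Zn, so they are not independent of each other. After correction for GC content and length they were -0.37 and -0.39 for *Mef2a* and *Myf5* with Cu in *Baf180* KD, and -0.38 and -0.18 with Zn (edgeR adjusted p of 0.225, 0.285, 0.148 and 0.622). In *Baf250a* KD with Zn they were -0.18 for *Mef2a*, -0.45 for *Myf5* and 0.87 for *Myog* (0.506, 0.163 and 0.0883), and in *Brd9* KD -0.19 for *Mef2a* (0.619). Without scr NT replicate 2 the Cu values in *Baf180* KD were -0.70 and -0.57, and without *Baf180* Cu replicate 1 they were -0.73 and -0.58, none of them called. The value of *Myog* lost its call without *Baf250a* NT replicate 2 (0.90) and without *Baf250a* Zn replicate 1 (1.80), the latter leaving only the shallow library for that condition. That of *Mef2a* in *Brd9* KD lost it without scr NT replicate 2 (-0.53), scr Zn replicate 1 (-0.73), scr Zn replicate 2 (-0.69), *Brd9* NT replicate 2 (-0.66) and *Brd9* Zn replicate 1 (-0.63).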

How the results depend on the processing

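Over the 7 settings other than leaving out a library, 1270 of 1374 values stayed on their side of the threshold without a called value turning its sign, 59 lost a call, 39 gained 1 and 6 turned their sign with a call in at least 1 of the settings. With 1 library left out, these counts were 1123 of 1219, 75, 21 and 0. Of 1566 values that were called in neither setting, 152 differed in sign. The 6 turned signs came from the GC correction without and with the replicate block, for *Myod1* in *Baf180* KD with Zn (-0.18 and -0.18), *Mef2d* in the same comparison (-0.25 and -0.25) and *Mef2a* with Zn in *Baf250a* KD (0.0303 and 0.0846). The GC correction moved counts of called members to 3 in *Baf250a* KD and 5 in *Brd9* KD, both against scr with Zn, to 0 for Zn in scr, 1 for Cu in *Baf180* KD, 1 for Zn in *Baf250a* KD, and 0 for all differences from scr in the metal responses. With the replicate block as well, the counts were 3 in untreated *Baf180* KD, 3 and 5 in *Baf250a* KD and *Brd9* KD with Zn, 0 for Zn in scr, 0 for Zn in *Baf250a* KD and 0 for the same differences. The block alone gave 0 for Zn in scr, 1 for Zn in *Baf180* KD and 2 for the Zn difference of *Brd9* KD. The difference between replicates 2 and 1 was correlated over genes between the 2 conditions of each comparison. These correlations of differences were -0.185 to 0.247 with 2 pairs per comparison, so the numbers were not taken as pairs. DESeq2 called 3 members in untreated *Baf250a* KD, 2 in *Baf250a* KD with Zn and 1 for Zn in *Baf250a* KD. The filter of at least 1 count gave 2 for Cu in scr, 1 for Zn in *Baf180* KD and 3 for the Zn difference of *Brd9* KD, and all 24 libraries in the fit gave 1 for Zn in *Baf250a* KD. The causes of these changes were not tested.

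Leaving out 1 library gave 3 to 4 called members in untreated *Baf180* KD, 3 to 5 in *Baf250a* KD and 0 to 5 in *Brd9* KD. With Cu it gave 2 to 5, 3 to 6 and 1 to 5, and with Zn 5 to 8, 2 to 3 and 3 to 4. It gave 0 to 1 for Cu in scr, and 0 to 2 each for Zn in scr, Cu in *Baf180* KD and Zn in *Baf250a* KD. The differences from scr gave 0 to 3 for Cu in *Baf180* KD, and 0 to 2 each for Cu and Zn in *Brd9* KD. Of the calls, 17 of 19 between KDs, 5 of 14 against scr untreated, 5 of 9 with Cu, 8 of 15 with Zn, and 0 of 7 and 0 of 8 for metal responses and their differences were kept in every setting. Depth limits *Myf6*, *Mef2c*, *Pax7* and *Pax3* throughout, and every member in the shallow library.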
